A study of Caenorhabditis elegans with 2 samples.

Results

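The genes described here are 8 cues and receptors of cell and axon guidance in *Caenorhabditis elegans*: the netrin gene *unc-6* and its receptor genes *unc-40* and *unc-5*, the slit gene *slt-1* and its receptor gene *sax-3*, the semaphorin gene *mab-20*, the Eph receptor gene *vab-1*, and *mig-13*. They were taken by name from the 19973 protein-coding genes of the annotation, and each was searched for binding summits of the Hox protein LIN-39 in its body and up to 2000 bp upstream. The assay was ChIP-seq, the sequencing of DNA precipitated with a protein, on whole L3 larvae, with the sexes given as pooled. There are 2 biological replicates and 1 group, from strain OP18, which carries the *unc-119(ed3)* allele on chromosome III and the integrated transgene wgIs18. The labels name the precipitated target as eGFP-tagged LIN-39 and give lin-39 as the antibody. There is no untagged or mutant group, so no contrast between conditions was possible. Whole animals mix all cell types: a peak does not show in which cells the protein was bound, and binding in few cells cannot be told apart from weak binding in many.

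The guidance pathways work by a secreted or membrane-bound cue read by a receptor on the moving cell or growth cone. UNC-6/netrin, a laminin-related cue made mostly on the ventral side, attracts through UNC-40, the worm's DCC, and repels through UNC-5, often together with UNC-40. SLT-1/Slit is read by SAX-3, the worm's Robo. MAB-20 is a secreted semaphorin that keeps cell contacts in order during epidermal and male tail development, and VAB-1 is the Eph receptor tyrosine kinase for ephrins on neighbouring cells. MIG-13 is a transmembrane protein that promotes anterior migration of the descendants of the right Q neuroblast, a migration for which *lin-39* is also needed.

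The sequences below are those under the summits that the results turn on, 50 bp to each side of the summit, on the plus strand of ce11 (RefSeq WBcel235), 5′ to 3′. They are shown so that strong summits at *mig-13*, *sax-3*, *unc-5*, *unc-6* and *vab-1* can be compared with summits below the optimal list. Among the latter is the strongest at *slt-1*, the gene without an optimal summit. Capitals mark TGATNNAT, the composite motif of a Hox protein with its Pbx cofactor, searched on both strands; where the capitals read ATNNATCA, the motif lies on the minus strand. It was the only motif searched. No sequence is shown for *unc-40* and *mab-20*. Their optimal summits had no match within 50 bp, but neither had those shown of *unc-6*, of *vab-1* and 302 bp upstream of *mig-13*. The sequences shown hold the motif more often than the summits in the 8 windows do. There it was found at 2 of 13 optimal summits and at 8 of 63 weaker ones.
*mig-13*, 2428 bp upstream, optimal, chrX:4802506-4802606: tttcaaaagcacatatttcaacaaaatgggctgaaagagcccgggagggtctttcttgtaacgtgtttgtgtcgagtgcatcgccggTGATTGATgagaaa
*mig-13*, 302 bp upstream, optimal, chrX:4800380-4800480: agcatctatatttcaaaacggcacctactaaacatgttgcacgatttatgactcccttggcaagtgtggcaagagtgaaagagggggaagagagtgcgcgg
*mig-13*, 1086 bp upstream, below the optimal list, chrX:4801164-4801264: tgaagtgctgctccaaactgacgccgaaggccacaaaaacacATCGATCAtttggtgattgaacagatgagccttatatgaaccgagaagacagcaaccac
*mig-13*, 664 bp inside the gene, below the optimal list, chrX:4799414-4799514: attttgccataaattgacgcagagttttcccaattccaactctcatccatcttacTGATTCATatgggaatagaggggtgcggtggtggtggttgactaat
*sax-3*, 4596 bp upstream, optimal, chrX:3470473-3470573: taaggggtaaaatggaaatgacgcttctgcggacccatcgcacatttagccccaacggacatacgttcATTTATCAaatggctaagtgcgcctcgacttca
*sax-3*, intron 5, optimal, chrX:3455704-3455804: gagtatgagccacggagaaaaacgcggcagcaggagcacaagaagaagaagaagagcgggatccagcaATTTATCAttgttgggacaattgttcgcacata
*unc-5*, intron 3, optimal, chrIV:5507931-5508031: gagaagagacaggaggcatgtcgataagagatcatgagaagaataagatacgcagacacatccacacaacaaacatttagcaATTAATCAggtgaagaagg
*unc-6*, intron 7, optimal, chrX:6894264-6894364: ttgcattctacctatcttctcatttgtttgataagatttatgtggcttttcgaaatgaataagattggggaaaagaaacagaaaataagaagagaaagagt
*vab-1*, intron 2, optimal, chrII:4575707-4575807: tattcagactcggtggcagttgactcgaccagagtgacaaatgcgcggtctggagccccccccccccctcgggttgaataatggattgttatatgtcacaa
*slt-1*, 358 bp upstream, below the optimal list, chrX:14673920-14674020: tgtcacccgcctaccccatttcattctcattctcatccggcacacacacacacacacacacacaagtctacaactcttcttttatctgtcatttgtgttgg

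Of the guidance genes, 7 of the 8 genes held at least 1 optimal summit, the exception being *slt-1*, and 4 of 8 held 2 or more. The optimal list is the authors' list of 4250 peaks, named as thresholded for reproducibility between the replicates. It equals the strongest 4250 of the 30000 peaks pooled from both, so not every peak in it was found in each replicate. Of the 4250, 4053 overlapped a peak in the full lists of both replicates. A further limit is that 131 were in neither replicate's own 4250 strongest. Signal is the authors' peak caller's value against the control, without an error of its own, and its scale differs between lists. Ranks count from 1 for the strongest peak. Of all protein-coding genes 19.2% held an optimal summit and 3.27% held 2 or more. The 8 genes are long, with a median window of 12332 bp against 4027 bp for all protein-coding genes, and long windows hold summits more often. Like length here means a window from 6042 to 34675 bp, the range of these 8. Of the 4314 such genes, 33.8% held an optimal summit and 9.32% held 2 or more. Short windows are commoner, with 2007 genes at 6000 to 8000 bp and 263 at 20000 bp or more. An optimal summit was held by 26.8% of genes at 6000 to 8000 bp (*mig-13*) and 35% at 8000 to 12000 bp. The share was 44.2% at 12000 to 20000 bp (*unc-40*, *sax-3*) and 55.1% at 20000 bp or more (*unc-5*, *vab-1*). The 4 genes with 2 or more optimal summits had the 4 longest windows of the 8, from 13667 bp up. In the relaxed pooled list all 8 had summits, as did 85.9% of the 4314 genes of like length. That list is named as holding peaks and background, so its entries below the optimal list may be background. In equally long lists made from a single replicate, 5 of 8 genes were bound among replicate 1's 4250 strongest peaks (33.9% of genes of like length) and 7 of 8 among replicate 2's (32.5%). The difference was *unc-6* and *mig-13*, which had no summit in their windows among replicate 1's strongest.

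**Figure D1:**
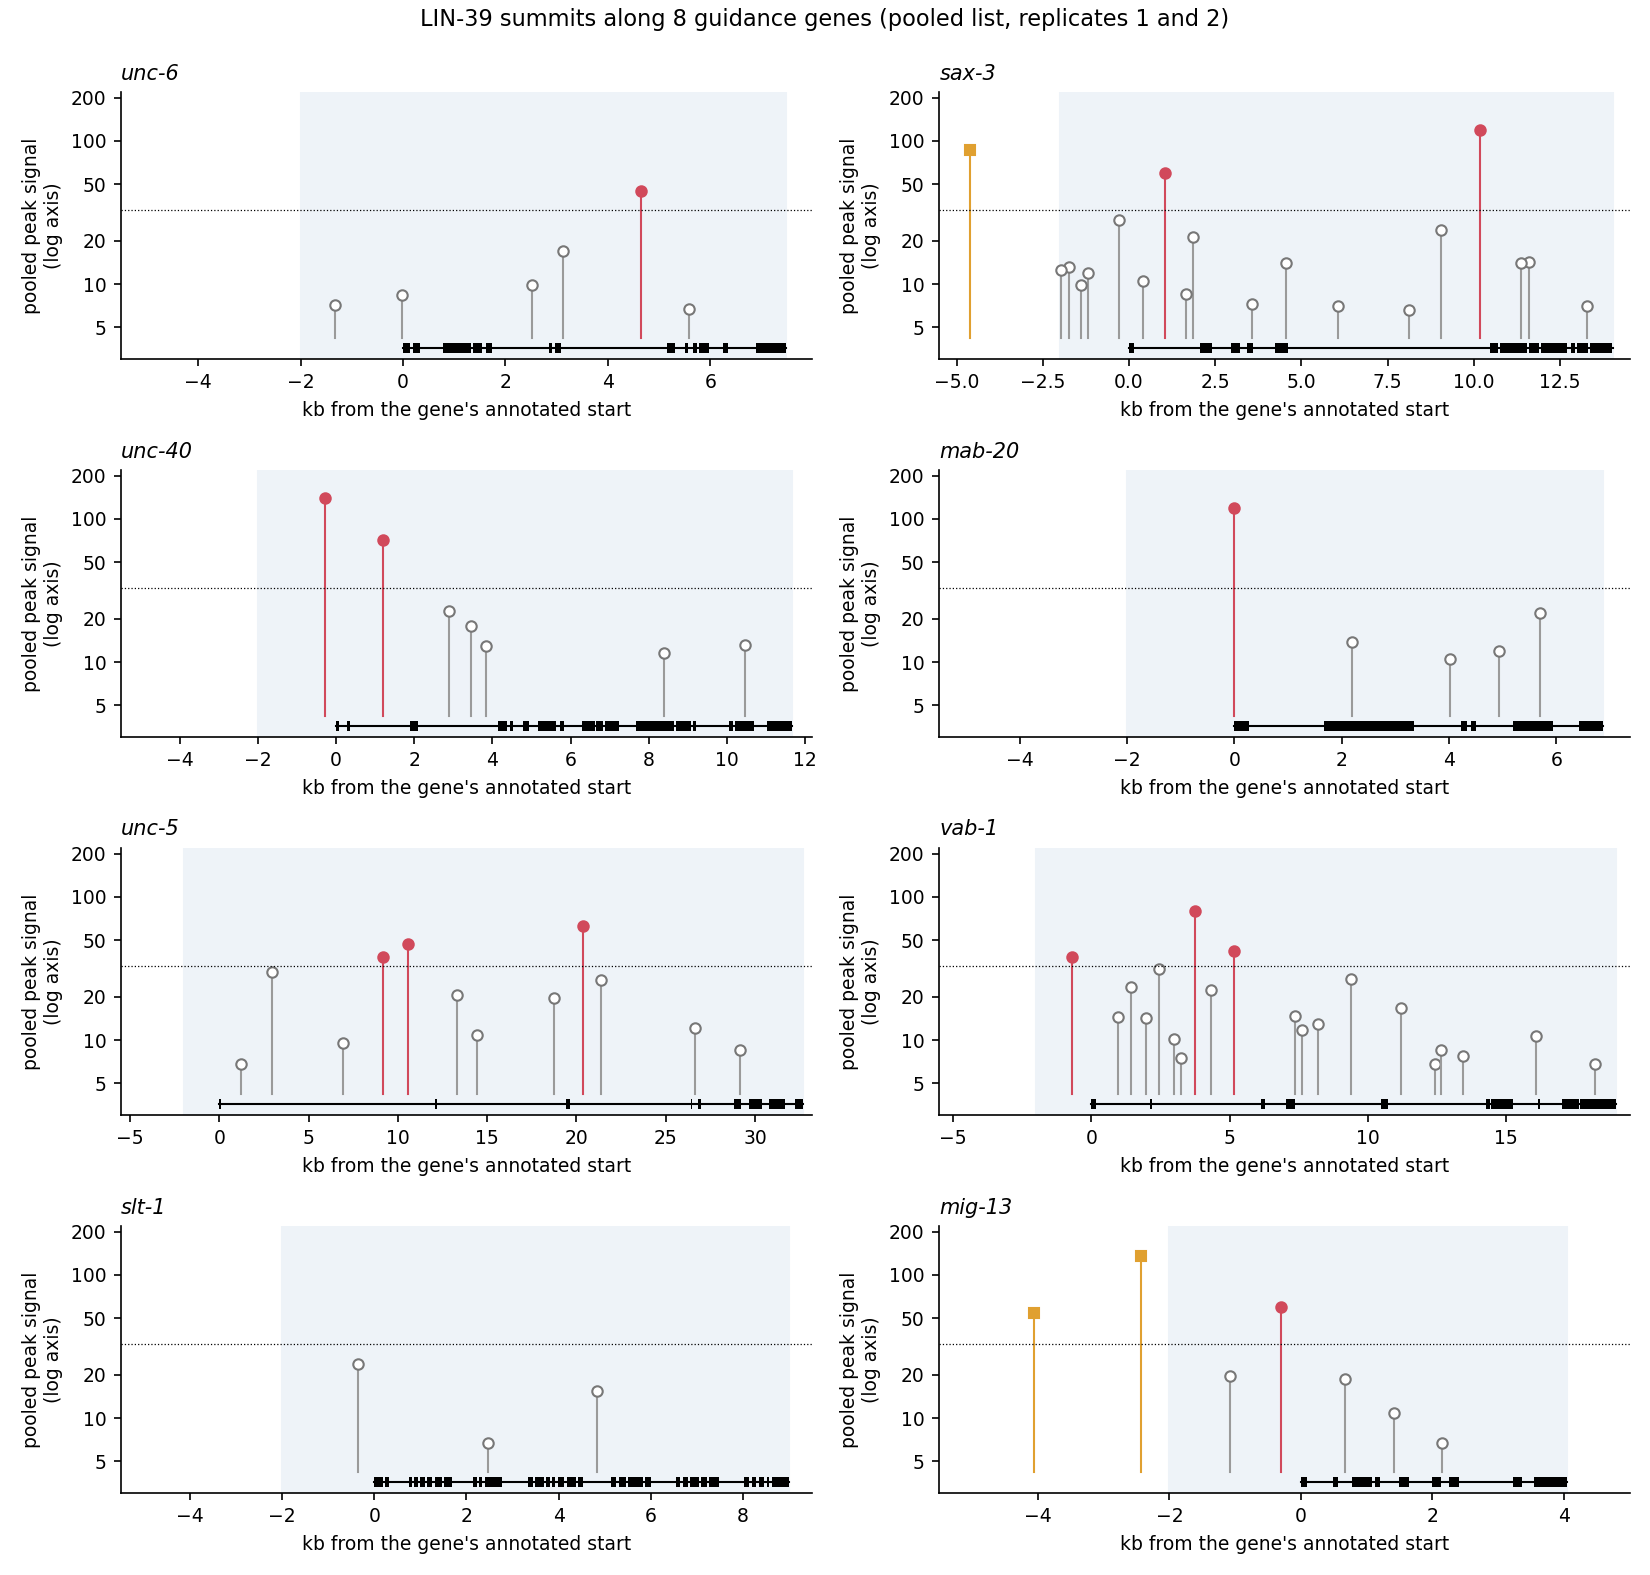
Summits of the pooled list along each gene, with distance from the annotated start in kb (upstream to the left) and peak signal on a log axis; black boxes are exons, shading marks the gene body and 2000 bp upstream, red points are optimal peaks, white points are weaker peaks, orange squares are optimal peaks from 2000 to 5000 bp upstream (weaker peaks there are not drawn), and the dotted line is the lowest optimal signal, 33.1. Red points fall mostly in introns and *slt-1* has none. The higher orange square of *mig-13* (signal 135) stands above the red point in its window (59.7), and that of *sax-3* (86.1) between the red points of that gene (59.3 and 119.6).

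**Figure D2:**
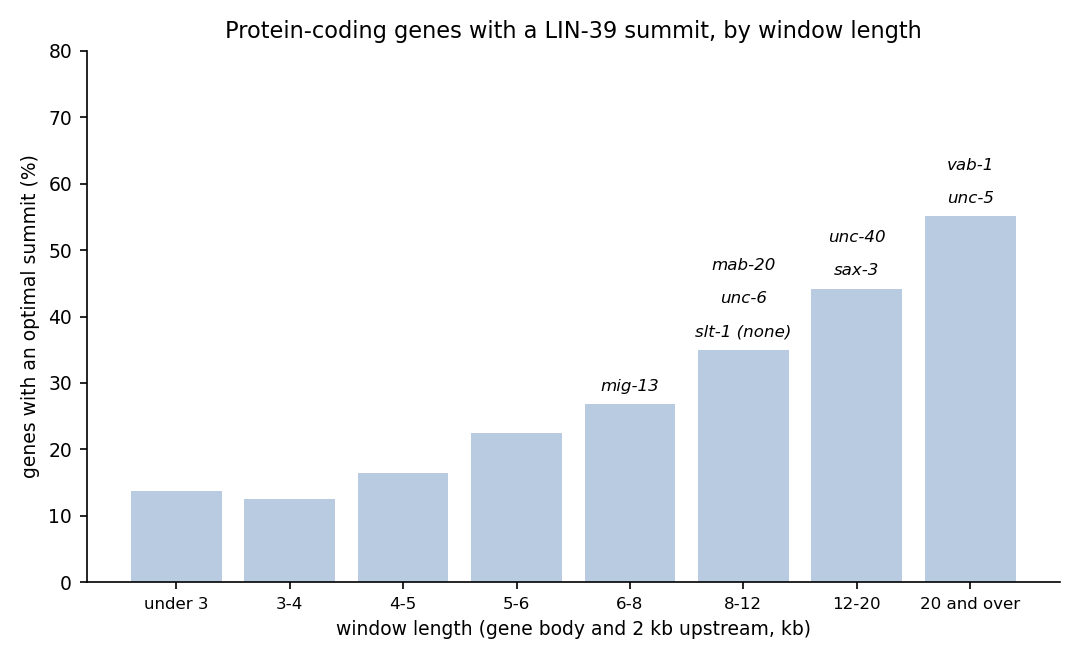
Percentage of protein-coding genes with an optimal summit in the gene body or 2 kb upstream, by length of that window in kb, with the 8 guidance genes named above the bar of their length class. The share rises from 13.8% of the shortest windows to 55.1% of the longest, and *slt-1* is the gene without a summit.

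The 13 optimal summits in these windows amount to 1.08 per 10 kb. All protein-coding windows together held 0.426 per 10 kb, and those of the same range of length 0.479. In replicate 1's 4250 strongest peaks the density over the 8 genes was 0.911 per 10 kb, and in replicate 2's it was 1.33, against 0.509 and 0.466 over windows of like length. The median signal of the 13 peaks was 59.7, against 52.6 for all 4250 optimal peaks. These are descriptions of a chosen set of genes and carry no test.

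Most of the 13 summits lay in introns. Introns held 9 of them (69.2%) and promoters held 4, a promoter being the 1000 bp before and 200 bp after the start of a coding transcript. Over all optimal summits 19.0% lay in introns and 51.2% in promoters. In windows of like length 33.8% lay in introns and 53.3% in promoters. Introns made up 63.3% of the sequence of the 8 windows. None of the 13 summits lay in a coding exon, a UTR or intergenic sequence. The GC content of the sequence within 50 bp of the summits ran from 30.7 to 68.3% with a median of 47.5%, against a median of 48.5% over all optimal summits.

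The netrin gene *unc-6* (chromosome X, 6889674 to 6897147, plus strand) held 1 optimal summit, in intron 7 of 2070 bp and 4640 bp from the start, with a pooled signal of 44.6. Its signal was 14.9 in replicate 1 (rank 4870) and 39.4 in replicate 2 (rank 1252), and the replicates' summits lay 116 and 40 bp from the pooled one. The peak was just outside replicate 1's 4250 strongest and well inside replicate 2's. The start of the gene had a weak summit 12 bp upstream with a signal of 8.38. A second intron summit of signal 17.1 had a TGATAAAT site 11 bp away and ranked 19611 and 13851 in replicates 1 and 2.

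The netrin receptor gene *unc-40* carried the strongest peak in any of the 8 windows. *unc-40* (chromosome I, 5679837 to 5691503, minus strand) held 2 optimal summits 1477 bp apart. The stronger lay 283 bp upstream of its start with a pooled signal of 141 (rank 199), and had a signal of 46.4 in replicate 1 (rank 677) and 96.7 in replicate 2 (rank 107). It also lay 478 bp upstream of *npp-7*, a nucleoporin gene on the other strand, so it can belong to either gene. The other, with a pooled signal of 70.9, lay in intron 2, of 1537 bp, and also 1955 bp upstream of *npp-7*, so within that gene's window too. Replicate 1 gave it a signal of 9.57 (rank 10540) and replicate 2 a signal of 62 (rank 408). Both replicates thus ranked the promoter peak high, while the intron peak was strong in replicate 2 alone. From the intron peak toward the 3′ end, 5 weaker pooled summits followed, the strongest with a signal of 22.6.

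The repulsive receptor gene *unc-5* (chromosome IV, 5495664 to 5528338, minus strand), which in larvae also guides the dorsal turn of the distal tip cells of the gonad, had the longest window, 34675 bp. It held 3 optimal summits, all in introns, of 12 pooled ones. The strongest, in intron 3 of 6762 bp, had a pooled signal of 63.1 and lay 922 bp downstream of an internal transcript start; its signal was 23.9 in replicate 1 (rank 2234) and 36.1 in replicate 2 (rank 1520). A TGATTAAT site lay 36 bp from that summit. The other optimal peaks lay 1409 bp apart in intron 1, which is 11991 bp long in the longest transcript. One had a pooled signal of 47.1, with 8.98 in replicate 1 (rank 11715) and 35.7 in replicate 2 (rank 1554). The last had a pooled signal of 38.1, with 7.26 in replicate 1 (rank 16359) and 27 in replicate 2 (rank 2655). Replicate 1 alone, in its 4250 strongest peaks, thus kept 1 summit in *unc-5*, whereas replicate 2 had 5. No pooled summit lay in the 2000 bp upstream.

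The slit gene *slt-1* (chromosome X, 14674328 to 14683324, plus strand) held no optimal summit, whereas its receptor gene *sax-3* held 2. Its strongest pooled summit lay 358 bp upstream with a signal of 23.9 (rank 6333). Replicate 2 had that peak at rank 4591 with a signal of 18.5, just below its 4250 strongest, and replicate 1 had none there. An intron summit had a signal of 15.5, at rank 18666 of replicate 1 and rank 9190 of replicate 2. The remaining summit, in a coding exon, had a signal of 6.66. The gap between optimal summits around *slt-1* was 54740 bp, and 11.1% of the 4244 gaps between neighbouring optimal summits were as long, with a median of 11104 bp. The read depth of the libraries is unknown, so a missing optimal peak does not show that the protein was absent.

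The Robo gene *sax-3* (chromosome X, 3451908 to 3465927, minus strand) had the densest relaxed summits of the 8, with 18 in the pooled list or 11.2 per 10 kb, where windows of like length held 3.59. Its strongest peak lay in intron 5, of 5870 bp, with a pooled signal of 119.6 (rank 333). That peak stood high in both replicates, with a signal of 60.8 in replicate 1 (rank 352) and 61 in replicate 2 (rank 424), and its summit moved by 1 and 5 bp. A TGATAAAT site lay 22 bp from the summit. It was 10173 bp from the annotated start of *sax-3*, and the nearest protein-coding start, 4532 bp away, belonged to the downstream gene ZK813.5. The other optimal peak lay in intron 1, of 1904 bp, with a pooled signal of 59.3; replicate 1 gave 18.3 (rank 3407) and replicate 2 gave 56.5 (rank 501). Its nearest annotated start, 1014 bp away, was that of ZK377.15, a gene annotated within *sax-3* itself. Upstream of the window, 4596 bp from the start of *sax-3*, stood an optimal peak of signal 86.1 (rank 984 in replicate 1 and 974 in replicate 2). It too had a TGATAAAT site 22 bp from the summit.

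The semaphorin gene *mab-20* and the Eph receptor gene *vab-1* differed in where their peaks lay. *mab-20* (chromosome I, 1644588 to 1651457, minus strand) had 1 optimal summit, 2 bp upstream of its annotated start, with a pooled signal of 119.7 (rank 330). The replicates' summits fell on the same base, with a signal of 66.2 in replicate 1 (rank 273) and 45 in replicate 2 (rank 925). The peak was also 1417 bp upstream of Y71G12B.18 on the other strand. Replicate 1 had a further peak among its strongest, 5701 bp inside the gene in a coding exon, at rank 2727; replicate 2 ranked it 20025 and it was not in the optimal list. At *mab-20* the strong, shared binding was thus at the start of the gene.

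At *vab-1* (chromosome II, 4572000 to 4590970, plus strand) the strongest binding was in intron 2, of 3919 bp. Of 20 pooled summits in its window, 3 were optimal. The strongest, 3757 bp from the start, had a pooled signal of 80.1, with 41.1 in replicate 1 (rank 886) and 37.2 in replicate 2 (rank 1429). A second in the same intron, 1404 bp further on, had a pooled signal of 42.1, with 26.3 in replicate 1 (rank 1914) and 21.4 in replicate 2 (rank 3757). Both intron peaks were thus among the strongest 4250 of each replicate. The optimal peak upstream, at 716 bp, had a pooled signal of 38.2 and went the other way from those of *unc-5* and *mig-13*, with 29.8 in replicate 1 (rank 1555) and 11.8 in replicate 2 (rank 7593). None of the optimal summits of *vab-1* had the motif within 50 bp.

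The strongest LIN-39 peak near *mig-13*, the gene for anterior migration, lay just beyond the 2000 bp window, 2428 bp upstream of the gene's annotated start, with a signal of 135 (rank 227 in the pooled list). That peak stood at rank 317 of replicate 1 and rank 280 of replicate 2. It was high in both, and had *mig-13* as the nearest protein-coding start. A TGATTGAT site lay 41 bp from its summit. A further optimal peak lay 4054 bp upstream (signal 53.9, rank 1262 in replicate 1 and 3873 in replicate 2), without the motif within 50 bp. Inside the window *mig-13* (chromosome X, 4796087 to 4800128, minus strand) held 1 optimal summit, 302 bp upstream with a pooled signal of 59.7. In the replicates' own lists that peak had a signal of 12.3 in replicate 1 (rank 6839) and 43.1 in replicate 2 (rank 1017). It was therefore outside the 4250 strongest peaks of replicate 1 and well inside those of replicate 2.

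The pooled list gave 4 more summits in the *mig-13* window, below the optimal list. One at 1086 bp upstream, over the noncoding RNA gene F43C9.8, had a signal of 19.8 and a TGATCGAT site 5 bp away. Its rank was 20961 in replicate 1 and 3901 in replicate 2. Another at 664 bp inside the gene, 112 bp upstream of an internal transcript start, had a signal of 18.8 and a TGATTCAT site 9 bp away; replicate 2 ranked it 4728 and replicate 1 had no overlapping peak. Both of these sites were thus favoured by replicate 2. Given the 5000 bp upstream, *mig-13* had 3 optimal summits.

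**Figure D3:**
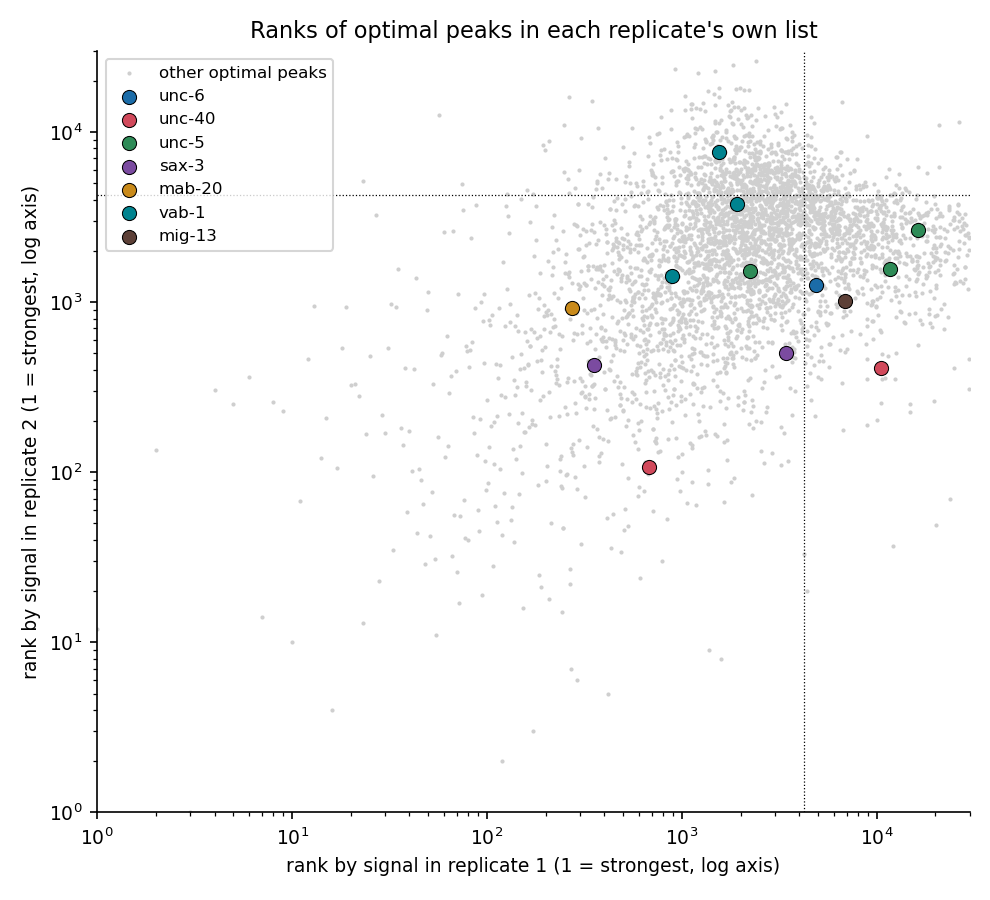
Rank by signal of each optimal peak in replicate 1 (horizontal) and replicate 2 (vertical), both on log axes with 1 the strongest; grey points are the other optimal peaks matched in both lists, large points are those in the windows of the guidance genes, and dotted lines mark rank 4250. Of the large points 5 lie to the right of the vertical line, outside replicate 1's strongest, and 1 lies above the horizontal line.

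At the 13 optimal peaks the replicates had peaks in the same places but ranked them differently. All 13 overlapped a peak in each replicate's relaxed list, as did 95.4% of all optimal peaks. The 13 were taken from the list pooled from both replicates, and the relaxed lists hold 30000 and 27572 peaks. This overlap therefore does not test whether the replicates agree. The summits of the 13 peaks were moved by a median of 14 bp in replicate 1 and 13 bp in replicate 2. Over all optimal peaks the medians were 15 and 17 bp. Of the 13 peaks, 7 (53.8%) were among the strongest 4250 of both replicates, against 56.7% of all optimal peaks. Replicate 2's strongest held 12 of them and replicate 1's held 8, against 80.8% and 72.7% of all optimal peaks. The 7 peaks high in both were the promoter peaks of *unc-40* and *mab-20*, the intron 3 peak of *unc-5*, both peaks of *sax-3* and both intron peaks of *vab-1*. The control alignments were the same for each replicate, so the lists share a source.

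**Figure D4:**
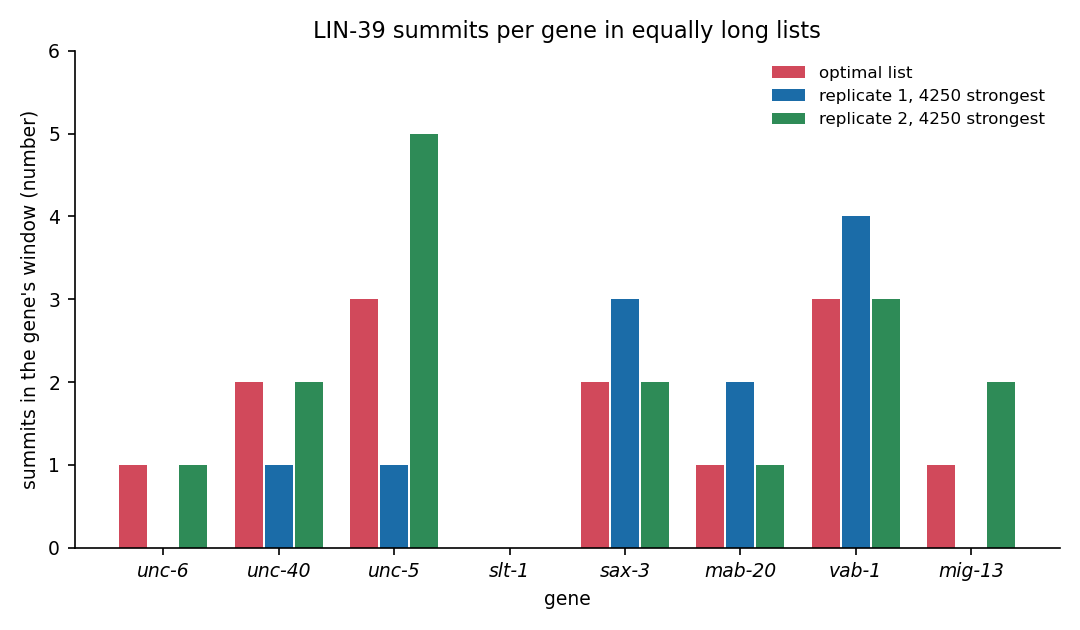
Number of summits in the window of each gene in the optimal list and in the 4250 strongest peaks of each replicate. *unc-5* has 5 summits in replicate 2 and 1 in replicate 1, *unc-6* and *mig-13* have none in replicate 1, and *slt-1* has none in any of these lists.

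The composite motif was found within 50 bp of 2 of the 13 optimal summits (15.4%), the intron peaks of *sax-3* and *unc-5*. Over all optimal summits it was found at 8.92%, in windows 500 bp to their left and right at 7.06% and 7.58%, and in 7.88% of all windows of that size laid side by side along the chromosomes. Of the 63 pooled summits of these genes below the optimal list, 8 (12.7%) had it, against 7.77% of all pooled summits below the optimal list. With peaks up to 5000 bp upstream added, the number of optimal summits with the motif rose from 2 to 4, of 16, by the peaks upstream of *mig-13* and *sax-3*. A match describes the letters near the summit and does not show that the protein was bound at them.

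The 63 weaker pooled summits filled in the long genes. *vab-1* held 17 of them, *sax-3* 16 and *unc-5* 9, with signals from 6.61 to 31.6. Of the 63, 8 had the motif within 50 bp, at 1 to 41 bp, against 2 optimal summits in the 8 windows, at 22 and 36 bp. With numbers so small and unequal, these distances do not show that the weaker summits lie closer to the motif. The closest were summits of *unc-5* (1 bp), *mig-13* (5 and 9 bp), *unc-6* (11 bp) and *unc-40* (19 bp). In *unc-5* a summit of signal 19.7 lay 1 bp from a TGATTTAT site and 702 bp upstream of an internal start; replicate 2 ranked it 5603 and replicate 1 had no peak there. In intron 1 of *unc-5*, 2932 bp from the start, a summit of signal 29.9 had a TGATGAAT site 38 bp away. In *vab-1* a summit of signal 23.3 had a TGATTTAT site 41 bp away and was at rank 5331 of replicate 1 and rank 3270 of replicate 2. In *sax-3* a coding-exon summit of signal 14.1 had a TGATTGAT site 41 bp away and was found in replicate 1 (rank 7977), with no overlapping peak in replicate 2. Of these 4 summits of *unc-5*, *vab-1* and *sax-3*, the one in *vab-1* was among the 4250 strongest of a replicate, replicate 2.

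Among the 4250 strongest peaks of each replicate, those without an overlapping optimal peak were 3 of 11 (27.3%) in these windows in replicate 1 and 4 of 16 (25%) in replicate 2. Over all such peaks the shares were 27.2% and 18.8%. Of the 7 in these windows, 2 were in *unc-5*, 2 in *vab-1*, and 1 each in *sax-3*, *mab-20* and *mig-13*. Those of *unc-5* came from replicate 2 (ranks 3949 and 4207), as did the *mig-13* peak (rank 3901). The *mab-20* peak and that 1773 bp upstream of *sax-3* (rank 3749) came from replicate 1. The peaks of *vab-1* came 1 from each replicate, at rank 2104 of replicate 1 and rank 3270 of replicate 2. No such peak was found at *unc-6*, *unc-40* or *slt-1*.

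Near the threshold of the optimal list, the weakest peaks inside it at these genes were those of *unc-5* (signal 38.1, rank 3507) and *vab-1* (38.2, rank 3498). The strongest outside it were peaks in *vab-1* (31.6, rank 4494), in *unc-5* (29.9, rank 4859) and 292 bp upstream of *sax-3* (28.1, rank 5197). The *vab-1* peak outside it ranked 2104 in replicate 1 and 8533 in replicate 2. Judged by number of optimal summits and window length alone, the genes most like *unc-5* were *spsb-1*, Y67D8A.2 and the ankyrin gene *unc-44*, with 3 summits each and windows 318 to 3374 bp longer or shorter. Those most like *vab-1* were *ckk-1*, C09G1.4 and *twk-13*, also with 3 summits each and windows at most 1146 bp longer or shorter. The likeness rests on the optimal list alone.

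Among other genes of these pathways, optimal summits were found at 5 of 13 ligands, receptors and cell-surface partners and at 8 of 10 intracellular partners of the receptors. The relaxed pooled list had summits at 12 of the 13 and at 10 of the 10. An optimal summit was held by 22.6% of protein-coding genes with windows in the range of the cell-surface list (3581 to 26875 bp) and by 25.5% of those in the range of the intracellular list (4085 to 34440 bp). The median window of all genes in those ranges was 5041 and 5706 bp, against 7632 and 12029 bp for the listed genes. In the length classes of the lists' medians, 26.8% of genes (6 to 8 kb) and 44.2% (12 to 20 kb) held an optimal summit. On the cell surface the strongest peaks were in introns of *sdn-1*, which encodes syndecan (signal 87.9, with a TGATTGAT site within 50 bp), *madd-4*, which encodes a secreted punctin (67.1), and *lon-2*, which encodes a glypican (45.3), and 1570 bp upstream of the ephrin gene *efn-2* (44). The plexin genes *plx-1* and *plx-2*, the semaphorin gene *smp-1* and the ephrin genes *vab-2*, *efn-3* and *efn-4* held no optimal summit. The same held for *unc-129* and *eva-1*, and all of these were named here after their values were seen. Of the intracellular partners, *unc-115*, which encodes an actin-binding LIM protein, had a peak 154 bp upstream (signal 120.3, rank 97 in replicate 1 and 438 in replicate 2). The kinase partner gene *unc-14* had one 155 bp upstream (rank 657 in replicate 1 and 242 in replicate 2), the kinase gene *unc-51* one 1409 bp upstream (95.5), and *max-1*, which acts with UNC-5, one in the promoter of an internal start (85.7).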

How the data were processed

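The authors deposited peak lists of LIN-39 ChIP-seq from 2 replicates, made against control alignments that both replicates share, per the deposited text indexes. Per the labels, fragments were 150 to 350 bp. Aligner, peak caller and reproducibility threshold were not given in the sources used here. For each peak, the signal the authors deposited ranks peaks within a list only. The −log10 q-value the authors deposited is the same for all 4250 optimal peaks and was not used. Read depth is unknown. Only the lists on ce11 were used, since the sequence and annotation at hand (RefSeq WBcel235; Ensembl release 115) are of that build and all peaks lie within its chromosomes. The lists on ce10 were not used.

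Analyses used Python 3.11.15 and NumPy 2.4.6. Summits are the peak start plus the deposited offset. A gene was called bound where a summit lay in its body or up to 2000 bp upstream. Each optimal peak was matched to the strongest overlapping peak of each replicate. Places were assigned in the order promoter, 5′ UTR, 3′ UTR, coding exon, intron. Intron numbers refer to the longest transcript. Window counts, matching and motif search were tested on made-up peaks. No test was made: there is 1 group, and the genes and lists were chosen with earlier results of these data known. Named are the 8 genes, genes whose windows share an optimal summit with them or whose starts are nearest to one, up to 4 genes of each pathway list by highest optimal signal, and the genes most alike. The cell-surface genes without an optimal summit were named after their values were seen, as were the noncoding RNA genes near summits; *enu-3* matched no annotated gene name.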

Additional observations from a re-analysis of the deposited data

How the results depend on the processing

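Of 43 recomputed values, 35 were within 1.5 times the reported ones. With only the 1000 strongest optimal peaks, 4 of the 8 genes kept a summit, with 4 summits in all, 4 of them in both replicates' strongest peaks, 1 with the motif and 2 in promoters. With 5000 bp upstream, 4 summits had the motif. With the gene body alone, 0 lay in promoters, as this choice leaves out the sequence before the start. With the motif sought within 25 bp, 1 summit had it. Without replicate 1 and without replicate 2, 7 and 5 genes were bound by 16 and 11 summits, *unc-6* and *mig-13* having 0 without replicate 2; membership of both replicates' strongest peaks has no value there. The peak midpoint in place of the summit could not change any of the 5 counts. At the optimal peaks in these windows the deposited summit is the midpoint. These 5 values, and those of single genes under this choice, are among the unmoved ones and say nothing on stability. Counting each summit for the nearest transcript start gave 15 summits at 7 genes. For single genes, 18 of 64 recomputed numbers of summits moved by more than 1.5 times. No paired analysis was possible because there is a single group. Precision is limited by the unknown depth and by 2 replicates.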

Other observations

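Noncoding RNA genes lay within 200 bp of 4 of the 13 optimal summits in the windows of the guidance genes (30.8%), of 23.7% of all optimal summits, of 22.4% of those in windows of like length and of 30.8% of those in introns. The *unc-6* intron summit was within that distance of the noncoding RNA gene F41C6.11, and the stronger *sax-3* intron summit of ZK377.9. The intron 3 summit of *unc-5* lay near 3 annotated piRNA genes, and the weakest optimal summit of *unc-5* near 1.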
